A study of Homo sapiens with 2 samples.

Results

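Caspases are proteases that carry out programmed cell death. The inflammatory caspases CASP1, CASP4 and CASP5 act in pyroptosis, a lytic death in which they cut gasdermin D (GSDMD), whose freed end forms pores in the plasma membrane. CASP1 is activated by inflammasomes and matures interleukin 1 beta and interleukin 18, whereas CASP4 and CASP5 sense bacterial lipopolysaccharide in the cytosol. CASP8 and CASP10 start apoptosis below death receptors, and CASP9 starts it on the apoptosome, after cytochrome c has left the mitochondria. These 7 genes were followed in a list of binding summits of IRF1, an interferon-induced transcription factor that recognises repeats of the letters GAAA.

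The list came from NB4, an established cell line grown from a human acute promyelocytic leukemia, with the fusion gene PML-RARA. Cells were given all-trans retinoic acid (ATRA), a drug that differentiates this leukemia, for 4 hours, or the solvent DMSO, and IRF1 was profiled by chromatin immunoprecipitation and sequencing (ChIP-seq) in 1 library each. Only the summits of the ATRA library were analysed here, so nothing below compares ATRA with DMSO, and there is no replicate to give a spread. Every value is a single measurement on 1 cell line. Summits were taken where the authors named a member as the nearest gene, at any distance, and also where they lay within 50 kb of the chromosome 11 cluster that runs from CASP4 through CASP5 to CASP1. By these criteria 6 of the 1986 summits were selected, 5 of them with a member as nearest gene and 1 with CARD16, a neighbour of CASP1.

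IRF1 summits were listed for all 3 inflammatory caspases, for GSDMD and for 1 of the 3 apoptotic initiators, CASP8. No summit was assigned to CASP9 or CASP10. With the distance to the transcription start site (TSS) limited to 10 kb, 4 of the 7 members had a summit assigned, against 3.37% of 19970 protein-coding genes. With a limit of 1 kb it was again 4 of 7, against 2.03% of those genes, and with no limit 5 of 7, against 6.38%. When a summit anywhere in a gene span extended by 10 kb was counted, 6 of 7 members qualified, against 7.46%, because the CASP8 summit then also counts for CASP10. The members were chosen with earlier results of this list known, so these counts are a description and were not tested.

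The promoter letters are shown first, because IRF1 is known to bind GAAA repeats. RefSeq promoter sequences (GRCh38.p14, 250 bases before to 50 after the start) were matched for 4 members, CASP4, CASP5, CASP8 and CASP9. Both strands were searched for the core of the interferon-stimulated response element (ISRE), which is GAAA followed by GAAA with any 2 letters between, for the same pair with any 3 letters between, and for TTCNNNGAA, the gamma-activated site of STAT factors, which reads the same on either strand. Capitals mark every match to any of these motifs. The promoters of CASP4 and CASP8 are printed because each held a summit, and that of CASP5 because it resembles the CASP4 promoter and held none. Each reads 5′ to 3′ along the gene's own strand.
CASP4, chr11:104968525-104968824, minus strand: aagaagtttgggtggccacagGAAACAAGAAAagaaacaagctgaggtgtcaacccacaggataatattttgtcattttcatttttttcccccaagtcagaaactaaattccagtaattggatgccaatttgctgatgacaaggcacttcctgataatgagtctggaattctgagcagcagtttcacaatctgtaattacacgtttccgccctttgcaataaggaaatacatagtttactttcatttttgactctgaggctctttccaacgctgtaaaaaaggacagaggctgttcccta
CASP5, chr11:105023119-105023418, minus strand: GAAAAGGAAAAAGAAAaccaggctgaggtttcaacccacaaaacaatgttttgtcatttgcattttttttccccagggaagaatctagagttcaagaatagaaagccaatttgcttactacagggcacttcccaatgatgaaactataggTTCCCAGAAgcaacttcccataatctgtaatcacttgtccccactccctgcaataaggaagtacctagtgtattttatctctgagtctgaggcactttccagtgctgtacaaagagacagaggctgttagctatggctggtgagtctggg
CASP8, chr2:201233213-201233512, plus strand: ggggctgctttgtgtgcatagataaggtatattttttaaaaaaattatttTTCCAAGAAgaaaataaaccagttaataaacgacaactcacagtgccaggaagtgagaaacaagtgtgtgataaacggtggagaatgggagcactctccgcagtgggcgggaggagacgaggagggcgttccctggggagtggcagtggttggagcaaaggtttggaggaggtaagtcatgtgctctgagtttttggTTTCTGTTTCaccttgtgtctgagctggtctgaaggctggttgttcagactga

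The CASP8 promoter held an ISRE core, TTTCTGTTTC on the printed strand, over the start site itself, from position -3 to 6 counted from a start site of 0. The CASP8 summit lay at position -52, so the middle of this core was 53.5 bp away from it. The promoter also held a gamma-activated site from -200 to -192, which was 144 bp from the summit. The other RefSeq starts of CASP8 held neither a summit nor an exact ISRE core in their windows.

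The CASP4 promoter held no exact ISRE core, although its summit lay at position 2, practically on the start site. Its only match was the wider spacing, GAAACAAGAAA, from -229 to -219, which lay 226 bp from the summit. With 1 mismatch allowed among the 8 fixed letters of the core, the nearest stretch, TTTCATTTTT from -11 to -2, was 8.5 bp from the summit, but 33.0% of all promoters hold such a stretch. Such a stretch was present in 68.9% of the 302 promoters that contained a summit and in 32.7% of those that contained none. In the CASP8 promoter the nearest one, from -9 to 0, was 47.5 bp from the summit. The 41 bases around each summit are shown next, with the summit base in capitals.
CASP4 summit, chr11:104968552-104968592, minus strand: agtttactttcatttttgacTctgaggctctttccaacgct
CASP8 summit, chr2:201233391-201233431, plus strand: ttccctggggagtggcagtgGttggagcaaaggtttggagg

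CASP5 presented the opposite arrangement. Its promoter held 2 overlapping exact ISRE cores, GAAAAGGAAA from -250 to -241 and GAAAAAGAAA from -244 to -235, and a gamma-activated site from -100 to -92, but no summit. The CASP4 and CASP5 promoters are related in sequence. In a global alignment 222 of 325 columns were identical (68.3%), against 48.3% for CASP4 with CASP8 and 49.2% for CASP5 with CASP8. The promoters at both RefSeq starts of CASP9 held none of the motifs, not even the ISRE core with 1 mismatch.

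Across the 35116 RefSeq promoters, 3.57% held the ISRE core, 2.86% held the wider spacing and 7.66% held TTCNNNGAA. The ISRE core was present in 38.7% of the 302 promoters that contained a summit of this list and in 3.27% of the promoters that contained none. CASP8 was therefore among the 117 promoters with both a summit and a core, and CASP4 among the promoters with a summit and no exact core. CASP5, with a core and no summit, was the more common case, because only 117 of the 1255 promoters with a core contained a summit. TTCNNNGAA was about as frequent in promoters with a summit (7.62%) as in those without (7.66%). The wider spacing was present in 6.62% and 2.83% of them. A stricter core, in which the second of the letters between the GAAA repeats is T and which is nested in the ISRE core, was found in 0.803% of promoters and in none of the matched member promoters. A match is a description of letters, and binding at these positions was not measured base by base.

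**Figure D1:**
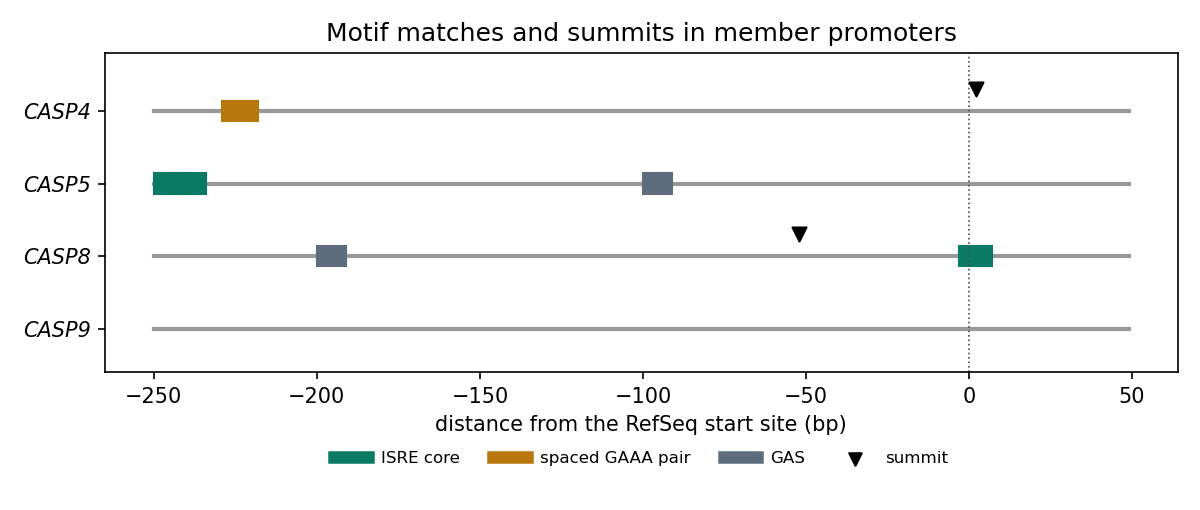
Positions of motif matches (coloured boxes) and IRF1 summits (triangles) in the RefSeq promoters of CASP4, CASP5, CASP8 and CASP9, with the distance from the start site in bp on the x axis. CASP8 has a summit at -52 and an ISRE core over the start site, CASP4 has a summit at 2 without an exact core, CASP5 has 2 overlapping cores and no summit, and CASP9 has neither.

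Among the inflammatory caspases the highest score belonged to CASP1. The score is the authors' peak score, whose scale is not stated, and it ranks summits within this list only. The CASP1 summit had a score of 52.3 at chromosome 11 position 105035141, 16 bp from the nearest TSS, in sequence annotated as promoter. It ranked 403 of 1986, above 79.7% of all summits. It lay inside the RefSeq gene span (105025443 to 105036686), 1545 bp from the nearer end of the gene, so the start site it marks is not the outermost one.

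CASP4 had the lowest score of the members, 18.7, at chromosome 11 position 104968572. This summit was also in promoter sequence, 26 bp from the TSS used by the authors and 2 bp from the end of the RefSeq span (104942866 to 104968574). Its rank was 1379, above 29.7% of all summits. CASP1 and CASP4 were alike in lying within 26 bp of a TSS in the authors' annotation, but their ranks were far apart.

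The CASP5 summit was of another kind. It had a score of 39.6 at chromosome 11 position 105000977, 22191 bp from the CASP5 TSS, and was annotated to intron 3 of 7 of a CASP5 transcript, within the gene span (104994243 to 105023168). The detailed annotation places it in an L2a element, an old LINE repeat. It ranked 578, above 70.7% of all summits and above the median of the 698 intronic summits, 24.8. Of 17 summits in L2a elements, with scores of 11.9 to 58.5 and a median of 25.3, 1 scored higher than this one. The start site of CASP5 lay closer to the CASP1 summit, at 11973 bp, than to the CASP5 summit.

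CARD16 encodes a protein made of little more than a caspase recruitment domain, which binds CASP1. Its summit, at chromosome 11 position 105045346 and -22 bp from its TSS, had a score of 24.8 and ranked 1002. With this one, 4 summits lay in the cluster over 76.8 kb, separated by gaps of 32.4 kb (CASP4 to CASP5), 34.2 kb (CASP5 to CASP1) and 10.2 kb (CASP1 to CARD16). The next summit on chromosome 11 was 2656 kb away, so the 50 kb limit left out no near neighbour. Outside a dense block of 133 summits on chromosome 21, 6.21% of the remaining 1853 summits had at least 3 others within 100 kb. All 4 of the cluster did too, which follows from their span of 76.8 kb. They are 1 locus, chosen with earlier results of this list known, so its density is a description and was not tested. CASP1, CASP4, CASP5 and CARD16 are related in sequence, and how reads that match more than 1 of them were placed is not given in the sources used here.

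**Figure D2:**
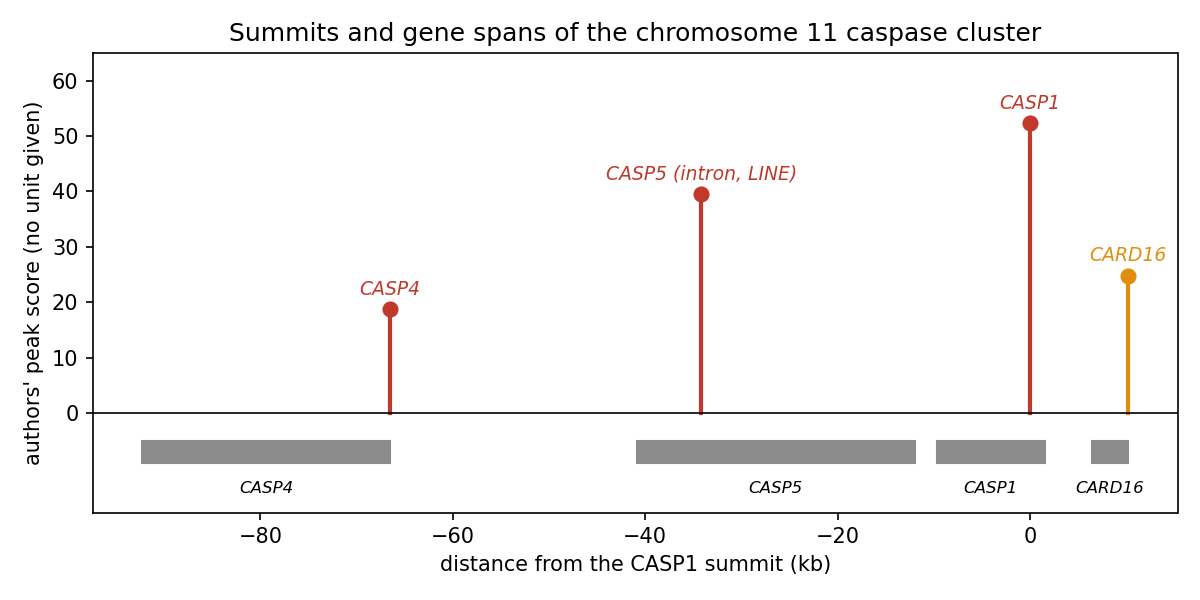
IRF1 summits of the caspase cluster on chromosome 11, with the distance from the CASP1 summit in kb on the x axis, the authors' peak score on the y axis and RefSeq gene spans as grey bars. The summits of CASP1 (52.3), CASP4 (18.7) and CARD16 (24.8) were annotated to promoters, the CASP1 summit lying 1545 bp inside its gene span, while that of CASP5 (39.6) was annotated to an intron.

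GSDMD, the pore-forming substrate of these caspases, had the highest score of the members. Its summit had a score of 73.0 at chromosome 8 position 143558344, 37 bp from a TSS and in promoter sequence, and ranked 270, above 86.4% of all summits. The RefSeq span of GSDMD runs from 143553387 to 143563062, so the summit lay 4957 bp inside it, at an internal start site.

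Of the apoptotic initiators, CASP8 had a score of 48.6 at chromosome 2 position 201233411, -32 bp from the TSS used by the authors and 52 bp outside the RefSeq span (201233463 to 201287711). It ranked 438, above 77.9% of all summits, and so came next below CASP1 among the members. CASP10 is the neighbour of CASP8 on chromosome 2 (201183141 to 201229406). No summit lay inside CASP10, and the nearest was the CASP8 summit, 4005 bp beyond its span. CASP9 (chromosome 1, 15491401 to 15524912) had no summit closer than 335 kb, that one being nearest to TMEM51. Read depth at these genes is unknown, so a gene without a summit is not shown to be unbound.

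Set side by side with no distance limit, inflammatory caspases had a summit assigned in 3 of 3 genes and apoptotic caspases in 1 of 3. Of all protein-coding genes, 6.38% had one by that rule. The contrast depended on the rule, because CASP5 dropped out within 10 kb and CASP10 was added with gene spans extended by 10 kb. The scores of the inflammatory summits were 52.3, 39.6 and 18.7, with a median of 39.6, and that of the only apoptotic summit was 48.6, a difference in medians of -9.01. Among the 998 summits at or above the median score of the list, which leave out CASP4, this difference was -2.63. The apoptotic value lay inside the inflammatory range, so the classes overlapped in score. Absolute TSS distances were 16, 26 and 22191 bp for the inflammatory summits, with a median of 26 bp, and 32 bp for the apoptotic one. The difference of -6 bp became 11072 bp without CASP4, so its direction rests on that summit. By annotation, 2 inflammatory summits were in promoters and 1 in an intron, and the apoptotic summit was in a promoter. No test was made, because 1 library and 1 apoptotic summit give no spread.

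**Figure D3:**
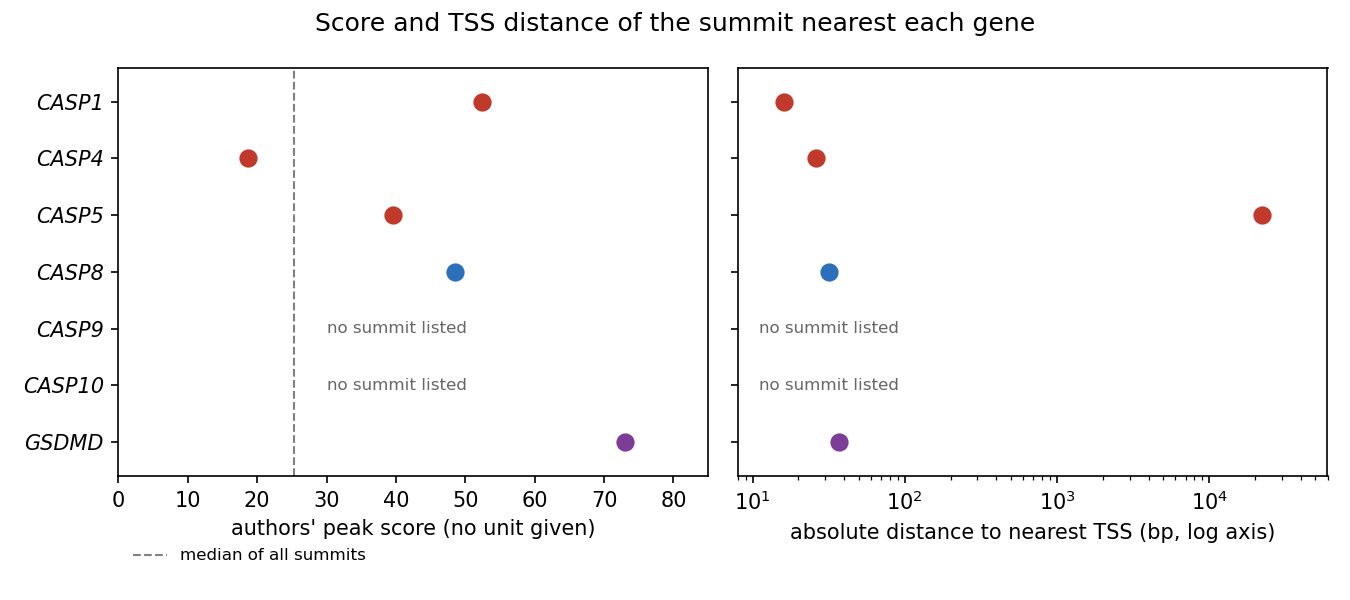
Authors' peak score (left, dashed line at the median of all summits, 25.2) and absolute distance to the nearest TSS in bp (right, log axis) of the summit assigned to each member, with inflammatory caspases in red, apoptotic caspases in blue and gasdermin D in purple. CASP1, CASP4, CASP8 and GSDMD lie between 16 and 37 bp from a TSS and CASP5 at 22191 bp, while CASP9 and CASP10 have no point.

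What 4 of the 5 member summits shared was their closeness to a start site. The summits of GSDMD, CASP1, CASP8 and CASP4 all lay within 37 bp of a TSS. This limit is the distance of the farthest of them, GSDMD, and was taken after seeing it. In the whole list 126 of the 1986 summits (6.34%) lay as close. Of these, GSDMD, CASP1 and CASP8 scored above the median of the 384 promoter summits, 27.6, and GSDMD also above their upper quartile, 52.5. CASP4 lay between the lower quartile, 16.9, and the median. The 4 members with a summit within 10 kb of the TSS, GSDMD, CASP1, CASP8 and CASP4, had 1 each, as did 616 of the 672 protein-coding genes with a summit at that distance. Among the best summits of those 672 genes, that of GSDMD exceeded 81.1%, that of CASP1 73.8%, that of CASP8 71.1% and that of CASP4 27.5%.

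**Figure D4:**
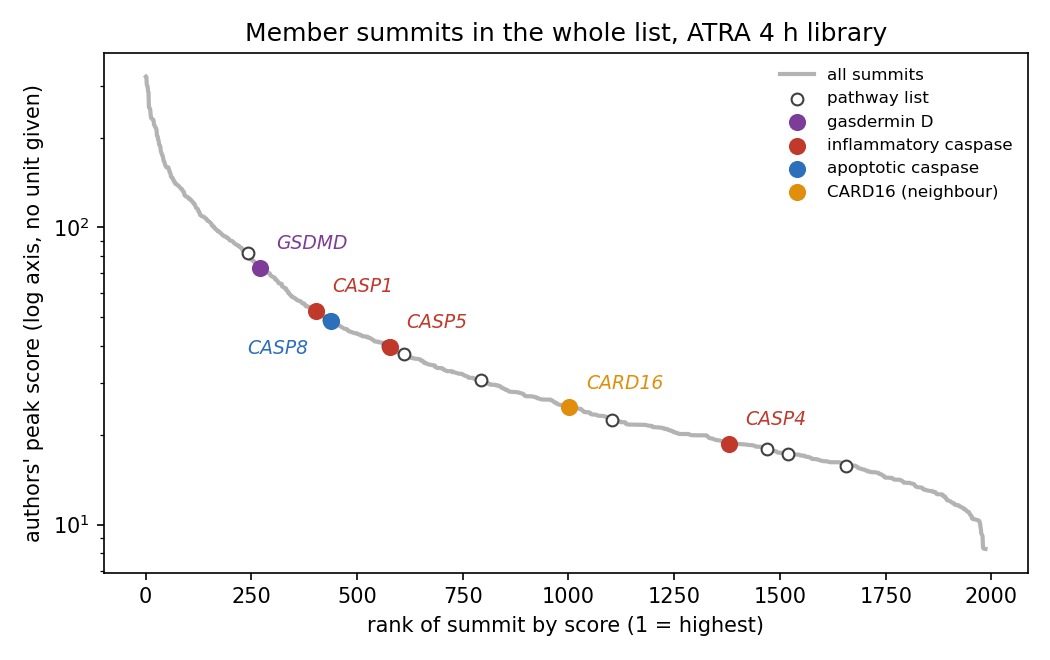
Authors' peak score (log axis) against rank for all 1986 summits (grey line), with member summits in colour and summits of the pathway list as open circles. GSDMD, CASP1, CASP8 and CASP5 stand in the upper part of the list, with CARD16 near its middle and CASP4 below it.

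The wider pathway was read from a list of 40 other genes: further caspases and gasdermins, CARD-only proteins, inflammasome sensors, their products, guanylate binding proteins, and partners of death receptors and of the apoptosome. With the 10 kb limit, 7 of these (17.5%) had a summit assigned, beside the 3.37% of protein-coding genes, and with no limit 9 did (22.5%), beside 6.38%. For CFLAR and CARD16 the summit was within 1 kb of the TSS in the authors' annotation, and for the other 5 it was farther away. The 40 genes include CARD16, whose summit was already selected above with the cluster, and 38 of them are protein-coding. CASP2, CASP6, CASP12 and CASP14 had none assigned.

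At the death receptor step, CFLAR, a catalytically inactive relative of CASP8 that restrains it, had a summit with a score of 18.0 in its 5′ UTR, 257 bp from the TSS used by the authors and 247 bp from the end of its RefSeq span. The nearest CFLAR start in the RefSeq promoter table was 2305 bp away. CFLAR and CASP8 flank CASP10, and their summits were 117.0 kb apart, with none between them. RIPK1, a kinase that binds CASP8, had summits with scores of 81.7 and 22.6, which the authors' annotation puts at -7971 and -8539 bp as intergenic. They lay 359 and 93 bp from RefSeq starts of RIPK1 in GRCh38.p14, so their distances depend on the annotation. FAS, a death receptor, had a summit with a score of 37.6 at -15382 bp, annotated as intronic and inside the RefSeq span of FAS. The remaining members of this group, FADD, TNFRSF10A, TNFRSF10B, TNFRSF1A, APAF1, CYCS, XIAP and DIABLO, had none assigned, although a summit assigned elsewhere lay within 10 kb of the TNFRSF10A span.

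Of 9 listed inflammasome sensors and adaptors, 2 had a summit assigned within 10 kb and 3 at any distance, against 3.37% and 6.38% of all protein-coding genes, and none of these summits was within 1 kb of the TSS. CARD8, a sensor that activates CASP1, had a score of 40.0 at -4101 bp, in an LTR13 repeat. PYCARD, the adaptor that joins sensors to CASP1, had a score of 15.8 at -5613 bp, in a SINE repeat, and the DNA sensor AIM2 had 17.2 at -15051 bp. The authors' annotation calls the AIM2 summit intergenic, but it lay inside the RefSeq span of AIM2 in GRCh38.p14. NLRP1, NLRP3, NLRP6, NLRC4, NAIP and MEFV had none assigned. Of the guanylate binding proteins, GBP2 had a score of 49.0 at -2847 bp and GBP1, which helps CASP4 to reach bacterial lipopolysaccharide, 30.7 at -4756 bp, in a LINE repeat, while GBP3 and GBP4 had none assigned.

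Apart from GSDMD, 0 of 9 listed genes downstream of the inflammatory caspases had a summit assigned, which is near the 6.38% of all protein-coding genes and is not a result about them. They were the 5 other gasdermin family genes, GSDMA, GSDMB, GSDMC, GSDME and PJVK, the cytokine genes IL1A, IL1B and IL18, and NINJ1, which ruptures the membrane after pore formation.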

How the data were processed

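One deposited file was used, a list of IRF1 summits that carries the name of the ATRA library. The submitters' processing notes name the build hg38, MACS 1.4.2 and Bowtie2 2.2.9. HOMER (annotatePeaks.pl, hg38) assigned genes and classes, per the file headers. The peak score is the authors' deposited score. No source used here gives its scale, the background and threshold of the calling, or what was done with duplicate reads. If DMSO cells were the background, sites bound alike in both would be missing. Depth is unknown, and no interval was computed.

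Member rows were taken by gene name, and Entrez identifiers gave the same rows. Of 1986 summits, the nearest gene of 1977 was found in RefSeq GRCh38.p14, which supplied spans and promoters. Members, lists and motifs were chosen with earlier results of these data known. All members and every gene with a summit in the pathway list used here are named. Some genes planned for that list are not reported here. Promoters were aligned globally (match 1, mismatch -1, gap opening -2, extension -0.5; Biopython 1.88). Motif search and gene counting were tested on simulated data. Python 3.11.15 and pandas 2.3.3 were used.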

Additional observations from a re-analysis of the deposited data

How the results depend on the processing

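There was no replicate to leave out. No paired analysis was possible because only the ATRA library was analysed. Of 23 alternatives, 15 left the value the same or within 1.5 times for a count, and 8 moved it. Members with a summit numbered 3 to 6 under the alternatives against 4. The 3 came from the summits at or above the median score. The 6 came from gene spans extended by 10 kb, a rule met by 7.46% of protein-coding genes. There CASP5 was added, with a summit inside its span, and the CASP8 summit also counted for CASP10. In the 998 summits at or above the median score, CASP4 and CARD16 dropped out and the cluster kept 2 summits. The pathway list then had 4 of 40 genes against 7. The share of all protein-coding genes was not computed for these 998 summits, so counts from them have no background beside them. In the same summits the difference in median score was -2.63 and that in TSS distance was 11072 bp against -6 bp. Within 10 kb the score difference was -13.1, because CASP5 dropped out. Within 1 kb the pathway list had 2 of 40 genes, CFLAR and CARD16, beside 2.03% of protein-coding genes. Promoters with a match numbered 0 for the stricter core and 1 for the wider spacing, against 2 for the ISRE core. The search with 1 mismatch was chosen after seeing the data. A gene without a summit is limited by unknown depth.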
